A study of Mus musculus with 2 samples.

Results

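Nes, Vim, Gfap, Lmna, Lmnb1 and Lmnb2 encode intermediate filament proteins, 3 of the cytoplasm and 3 of the nucleus. They were taken by name from the table of kept cells, where all 6 were present among 15364 genes. Their level, the share of cells that held a transcript and their detection in the same cell were followed in cultured neural stem cells across 4 states, 4 autofluorescence gates, 4 cell cycle phases and 4 clusters.

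Intermediate filament proteins pair through a coiled-coil rod and assemble into rope-like polymers without a motor or a nucleotide cycle. In the cytoplasm of neural stem cells vimentin is the scaffold, nestin needs a partner such as vimentin to assemble and marks neural stem and progenitor cells, and GFAP marks radial glia-like stem cells of the adult hippocampus and astrocytes. The lamins line the inner nuclear membrane, where lamin B1 and lamin B2 stay tethered by a farnesyl anchor and lamins A and C, both made from Lmna, also reach the nuclear interior.

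Nes, Vim and Gfap, the 3 cytoplasmic genes, each differed by over 2-fold between cultures, so the 250 bases before the RefSeq start of each are shown (RefSeq, GRCm38.p6, 5′ to 3′ on the gene's strand). RefSeq promoters were matched for 5 of the 6 genes. Capitals mark matches, on either strand, to CCAAT, to the GC box GGGCGG or to the TATA box TATAAA. The Nes stretch lies on the plus strand at chr3:87970843-87971092, the Vim stretch on the plus strand at chr2:13574061-13574310 and the Gfap stretch on the minus strand at chr11:102897201-102897450.
Nes: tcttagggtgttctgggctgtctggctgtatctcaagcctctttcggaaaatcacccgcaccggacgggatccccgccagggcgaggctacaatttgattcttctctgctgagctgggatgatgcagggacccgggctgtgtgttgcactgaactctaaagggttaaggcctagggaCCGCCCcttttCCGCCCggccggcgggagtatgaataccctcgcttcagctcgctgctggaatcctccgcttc
Vim: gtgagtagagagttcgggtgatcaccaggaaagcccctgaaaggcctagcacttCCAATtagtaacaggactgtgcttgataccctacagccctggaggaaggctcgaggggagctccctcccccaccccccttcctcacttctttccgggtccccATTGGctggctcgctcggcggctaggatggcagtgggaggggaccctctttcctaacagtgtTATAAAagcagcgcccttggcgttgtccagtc
Gfap: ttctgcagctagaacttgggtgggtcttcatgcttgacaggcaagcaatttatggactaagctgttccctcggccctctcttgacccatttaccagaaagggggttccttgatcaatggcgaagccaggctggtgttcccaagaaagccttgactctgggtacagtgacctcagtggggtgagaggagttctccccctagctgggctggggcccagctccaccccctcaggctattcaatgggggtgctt

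The Nes stretch held 2 GC boxes, and the Vim stretch held 2 CCAAT boxes and 1 TATA box. The Gfap stretch held none of the 3 motifs in these letters. Over 32851 mouse promoter stretches of the same length, 33.8% held a CCAAT box, 32.7% a GC box and 12.4% a TATA box. TGANTCA, the AP-1 motif, and TTCNNNGAA, the STAT motif, were in 6.75% and 7.02% of them and in none of the 3 stretches shown. A match is a description of letters and not a measured site. In GENCODE M21 on the same build, Nes spans chr3:87971078-87980451, Vim chr2:13573927-13582826, Gfap chr11:102887336-102900912, Lmna chr3:88480147-88509956 and Lmnb2 chr10:80901203-80918245. The stretches shown for Vim and Gfap therefore lie inside the outer limits of the GENCODE gene models. The end of the Nes stretch also reaches past the start of its GENCODE gene model.

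Neural stem cells had been cultured from hippocampi of C57BL6/J males, 6 weeks old, with no transgene or deletion named in the labels. Quiescent cells had been kept in 50 ng/mL BMP4 with FGF2 and without EGF, a state taken as reached at 3 days, and cells at 24 h and 48 h of exit had then been moved to the growth medium with 0.5 ug/mL noggin, an antagonist of BMP4. Activated cells grew in 20 ng/mL FGF2 and EGF, and all media held B27 supplement, heparin and antibiotics. Single cells of each state were sorted from 4 gates (low, low-mid, mid-high, high) along punctate autofluorescence into 2 plates of 384 wells and read by SORT-seq, which tags each polyadenylated transcript once near its 3′ end.

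Each state is 1 culture: differences between states lack replication, and the intervals given cover counting error only. The quiescent and 24 h cultures shared 1 plate and the 48 h and activated cultures the other, so state and plate cannot be told apart in activated over quiescent, 48 h over 24 h and 48 h over quiescent. The table held 640 cells, with 174, 151, 151 and 164 in the quiescent, 24 h, 48 h and activated cultures and 32 to 46 per gate and state, where the labels speak of 47 cells per condition. Cells held 5013 to 97009 transcripts each, and 269 well barcodes were used by kept cells of both plates, as is usual for plate barcodes. Of 11 neural stem cell markers all were in the table, with Sox2 at 192, 263, 167 and 184 counts per 1000000 counts (CPM) in quiescent, 24 h, 48 h and activated cells. The list summed to 6594, 4231, 3337 and 3411 CPM in this order, most of it Fabp7 at 4901, 2369, 2152 and 2234 CPM, and Hes5, a Notch target, stood at 68.0 CPM in quiescent cells, with 3.94 at 24 h and 0.727 at 48 h. Prom1, the gene of prominin-1, was listed at 0 at 24 h and 48 h. The summed markers of microglia, of endothelium and of mural cells and fibroblasts stayed at or below 2.13 CPM in every culture. Neuron markers summed to 206, 346, 434 and 360 CPM, nearly all of it Map2, oligodendrocyte lineage markers to 37.2, 36.4, 40.7 and 13.3 CPM and ependymal markers to 5.40, 1.64, 6.30 and 18.4 CPM. Their part in the results was not tested.

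Nes was higher at each step away from quiescence. Summed over a culture it stood at 56.9 CPM in quiescent cells (95% Poisson interval 50.4 to 64.0), 152 at 24 h (139 to 167), 402 at 48 h (383 to 422) and 657 in activated cells (638 to 677). In gates from low to high, the quiescent culture gave 65.4, 65.1, 51.1 and 51.6 CPM and the 24 h culture 265, 177, 92.9 and 117 CPM. The 48 h culture gave 501, 414, 378 and 353 CPM and the activated culture 661, 671, 631 and 668 CPM. No gate of one state reached into the range of another state, and the gates within the 24 h culture were the most spread. Here and below, overlap refers to the gate values, and the intervals of single gates can overlap where the values do not. The share of all genes whose gates keep apart is not given, so these are descriptions. Activated over quiescent the ratio of CPM was 11.6 (10.2 to 13.1), 24 h over quiescent it was 2.68 (2.30 to 3.12) and 48 h over 24 h it was 2.64 (2.38 to 2.93). At 48 h Nes stood at 0.612 (0.578 to 0.648) of its activated level.

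Vim, the most abundant of the 6, followed a different course. It stood at 551 CPM in quiescent cells (530 to 572), 594 at 24 h (567 to 622), 844 at 48 h (816 to 872) and 3036 in activated cells (2994 to 3078). From the low to the high gate, quiescent cells had 603, 545, 473 and 581 CPM and 24 h cells 573, 618, 564 and 608 CPM. In the same order 48 h cells had 961, 863, 798 and 792 CPM and activated cells 2941, 3019, 3097 and 3034 CPM. The quiescent and 24 h gates overlapped, all 48 h gates lay above both, and all activated gates lay far above the rest. The ratio was 5.51 (5.30 to 5.75) for activated over quiescent, 1.08 (1.02 to 1.15) for 24 h over quiescent, 1.42 (1.34 to 1.51) for 48 h over 24 h and 0.278 (0.268 to 0.288) for 48 h over activated. Per ERCC spike-in count, an RNA added to each well in equal amount, the 24 h over quiescent ratio of Vim turned to 0.781. Vim at 48 h was at 1.53 (1.46 to 1.61) times its quiescent level, where Nes was at 7.07 (6.22 to 8.07) times its own.

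Gfap ran the other way. It stood at 72.5 CPM in quiescent cells (65.1 to 80.5), 17.4 at 24 h (13.0 to 22.8), 2.42 at 48 h (1.16 to 4.46) and 1.37 in activated cells (0.627 to 2.60). From the low to the high gate, quiescent cells had 38.0, 75.3, 106 and 65.0 CPM and 24 h cells 13.9, 5.75, 27.6 and 21.6 CPM. In 48 h cells the gates had 0, 1.13, 3.33 and 4.05 CPM and in activated cells 0, 1.56, 1.68 and 1.52 CPM. The quiescent gates did not overlap with any other state, and neither did those at 24 h, while 48 h and activated gates overlapped. The activated and 48 h sums rest on 9 and 10 counts. The ratio was 0.0189 (0.00858 to 0.0363) for activated over quiescent, 0.240 (0.176 to 0.321) for 24 h over quiescent and 0.139 (0.0632 to 0.277) for 48 h over 24 h. The summed level of 7 astrocyte markers was 5010 CPM in quiescent cells (4631 to 5454 over gates), 5218 at 24 h (3293 to 6294), 1525 at 48 h (1024 to 2090) and 1103 in activated cells (934 to 1141), with none of the 7 at 0 in any culture. The markers did not move as one: at 24 h Slc1a2 was at 1265 CPM, against 422 in quiescent cells, and Aqp4 at 106 CPM, against 244 in quiescent cells. Their part in the Gfap values was not tested.

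Lmna, whose products lamin A and lamin C stiffen the nucleus, was lowest at 24 h. It stood at 21.4 CPM in quiescent cells (17.5 to 25.9), 6.89 at 24 h (4.27 to 10.5), 13.8 at 48 h (10.5 to 17.9) and 39.8 in activated cells (35.1 to 44.9). From the low to the high gate, quiescent cells had 21.4, 25.1, 20.4 and 19.7 CPM, 24 h cells 3.98, 11.5, 3.76 and 6.83 CPM, 48 h cells 12.8, 12.4, 12.2 and 16.2 CPM, and activated cells 32.6, 38.2, 34.7 and 46.3 CPM. No 2 states overlapped over their gate values, but 24 h and 48 h were not apart beyond counting error. The low-mid gate at 24 h held 10 counts (5.52 to 21.2 CPM) and the mid-high gate at 48 h held 11 (6.10 to 21.9 CPM). The 24 h sum held 21 counts, and the 24 h over quiescent ratio was 0.322 (0.191 to 0.519). The ratio was 1.86 (1.47 to 2.36) for activated over quiescent and 0.347 (0.256 to 0.464) for 48 h over activated.

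Lmnb1, the B-type lamin whose loss is used as a mark of senescence, separated the states into a low and a high pair. It stood at 4.78 CPM in quiescent cells (3.03 to 7.17), 3.94 at 24 h (2.04 to 6.88), 45.1 at 48 h (38.8 to 52.1) and 51.7 in activated cells (46.3 to 57.5). From the low to the high gate, quiescent cells had 8.32, 9.30, 4.26 and 0.580 CPM, 24 h cells 7.97, 4.60, 0 and 4.55 CPM, 48 h cells 58.3, 32.7, 55.6 and 38.5 CPM, and activated cells 62.8, 63.9, 45.9 and 45.9 CPM. The gates overlapped within each pair of states and not between the pairs. The ratio was 10.8 (7.09 to 17.3) for activated over quiescent, 11.4 (6.40 to 22.6) for 48 h over 24 h, 0.825 (0.374 to 1.73) for 24 h over quiescent and 0.873 (0.726 to 1.05) for 48 h over activated.

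Lmnb2, the gene of the other B-type lamin, shared this course with a smaller range. It stood at 10.4 CPM in quiescent cells (7.71 to 13.7), 6.56 at 24 h (4.01 to 10.1), 26.7 at 48 h (21.9 to 32.1) and 26.7 in activated cells (22.9 to 30.9). From the low to the high gate, quiescent cells had 13.1, 10.2, 12.8 and 7.54 CPM, 24 h cells 1.99, 13.8, 1.25 and 6.83 CPM, 48 h cells 30.3, 28.2, 30.0 and 21.6 CPM, and activated cells 34.9, 25.7, 29.1 and 22.8 CPM. Every gate at 48 h and in the activated culture lay above every quiescent and 24 h gate. The ratio was 2.57 (1.87 to 3.59) for activated over quiescent, 4.06 (2.51 to 6.91) for 48 h over 24 h and 1.00 (0.781 to 1.28) for 48 h over activated.

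**Figure D1:**
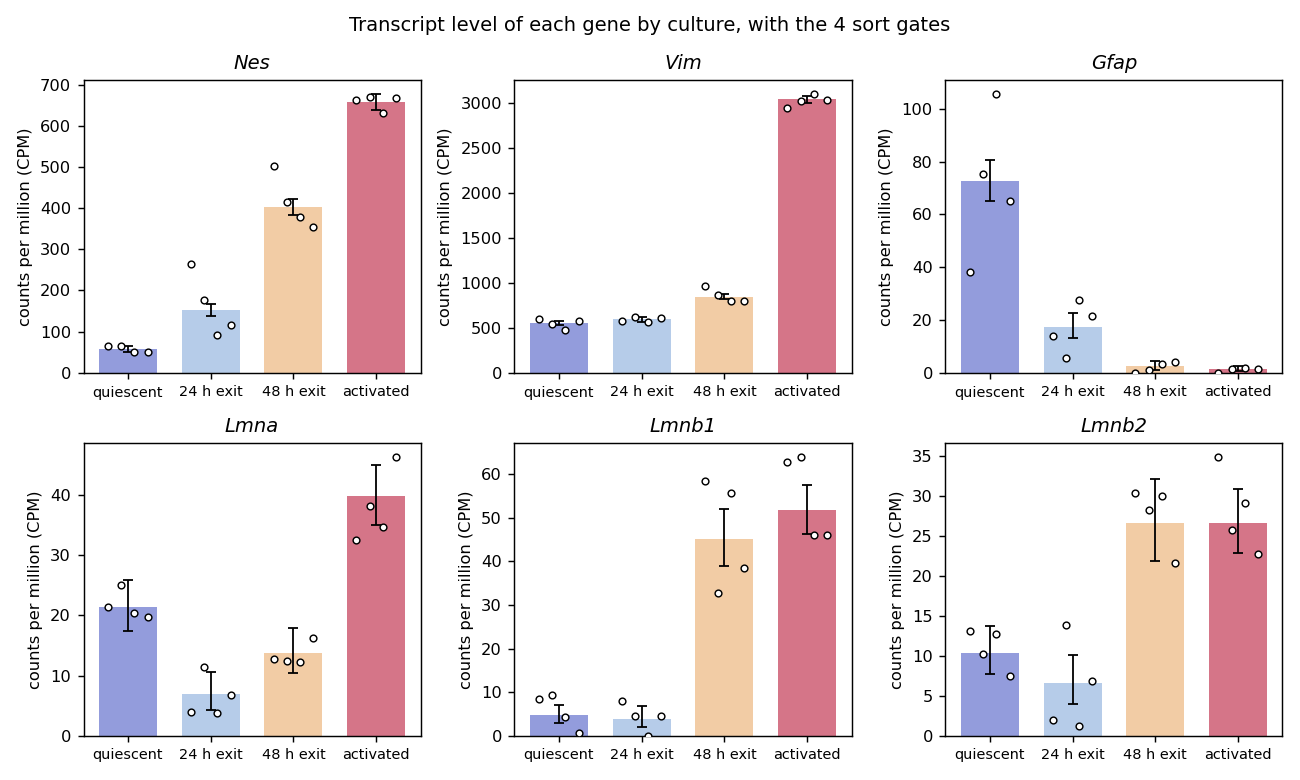
Level of each gene in counts per 1000000 counts (CPM, linear axes that differ between panels) in the 4 cultures, ordered from quiescent over 24 h and 48 h to activated. Bars are the sum over a culture with its 95% Poisson interval, and open circles are the low, low-mid, mid-high and high gates from left to right. Nes climbs at every step to 657 CPM, Vim is at 844 CPM at 48 h, against 3036 CPM in activated cells, and Gfap is at 1.37 CPM in activated cells, against 72.5 CPM in quiescent cells.

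To set these ratios against all genes, a gene was called where log2(CPM + 10) differed by 1 or more between cultures with at least 20 counts in the pair. This scale understates ratios of low genes. Activated over quiescent, 3 of the 6 members were called higher (Nes at 3.32, Vim at 2.44 and Lmnb1 at 2.06 on this log2 scale), against 9.12% of 11011 genes. Gfap was called lower at -2.86, against 6.5% of genes. At 24 h over quiescent, Nes was called higher at 1.28, against 1.23% of 10462 genes, and Gfap lower at -1.59, against 2.27% of genes. Lmna at -0.89 fell short of the call there. At 48 h over 24 h, Nes at 1.34, Lmnb1 at 1.98 and Lmnb2 at 1.15 were called higher, against 4.49% of 10324 genes, and Gfap at -1.14 lower, against 2.62%. At 48 h over activated, where 5 members had 20 counts, Vim at -1.83 and Lmna at -1.06 were called lower, against 1.63% of 10780 genes, and no member higher, against 1.25%. At 48 h over quiescent, Nes at 2.62 and Lmnb1 at 1.90 were called higher, against 4.47% of 10663 genes, and Gfap lower at -2.73, against 4.75%. These comparisons share cultures and are not independent of each other. The median log2 ratio of the members was 1.45, -0.19, 0.82, -0.43 and 0.73 in the 5 comparisons in this order, beside 0.07, -0.01, -0.03, -0.08 and -0.02 over all genes. Scaled to spike-ins in place of totals, 5 members were called higher and Gfap lower in activated over quiescent, but so were 22.6% of all genes higher and 3.51% lower, and the median of all genes was 0.47. At 24 h over quiescent that scaling put the median of all genes at -0.29. No member was called higher there, beside 0.478% of all genes. Gfap at -1.82 and Lmna at -1.02 were called lower, beside 4.22% of all genes.

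The make-up of each family also differed between states. SORT-seq counts a molecule once whatever its length, so counts were not divided by length, and differences in capture between genes are not accounted for. Of 3274 cytoplasmic filament counts in quiescent cells, Nes made up 8.37% (95% Clopper-Pearson interval 7.44 to 9.37), Vim 81.0% (79.6 to 82.3) and Gfap 10.7% (9.62 to 11.8). At 24 h the Nes share was 20.0% (18.3 to 21.6), at 48 h 32.2% (31.0 to 33.5) and in activated cells 17.8% (17.3 to 18.3). The Nes share was thus highest at 48 h, where Nes was at 0.612 and Vim at 0.278 of the activated level. Of the 176 lamin counts in quiescent cells Lmna made up 58.5% (50.9 to 65.9), Lmnb1 13.1% (8.47 to 19.0) and Lmnb2 28.4% (21.9 to 35.7). At 48 h, with 353 lamin counts, Lmna made up 16.2% (12.5 to 20.4), Lmnb1 52.7% (47.3 to 58.0) and Lmnb2 31.2% (26.4 to 36.3). In activated cells, with 775 lamin counts, Lmna made up 33.7% (30.3 to 37.1), Lmnb1 43.7% (40.2 to 47.3) and Lmnb2 22.6% (19.7 to 25.7). At 24 h only 53 lamin counts were seen, with Lmna at 39.6% (26.5 to 54.0). Summed over a culture, Lmna was the leading lamin transcript in quiescent cells and Lmnb1 at 48 h and in activated cells. This order did not hold in every part of a culture. In activated cells called G1, Lmna stood at 46.0 CPM and Lmnb1 at 17.5 CPM, and the activated high gate held 122 and 121 counts. In 48 h cells of cluster 0, Lmna stood at 11.2, Lmnb1 at 3.75 and Lmnb2 at 13.1 CPM. Within the activated culture the Lmna share was 40.3% (34.7 to 46.0) in the high gate, against 25% (17.3 to 34.1) in the low gate.

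**Figure D2:**
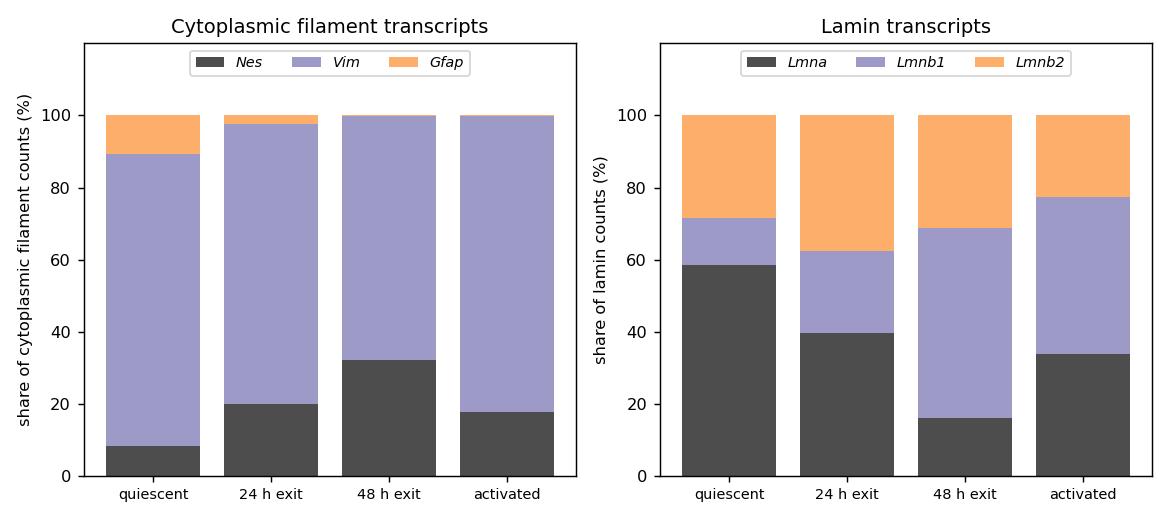
Share in percent of the summed counts of Nes, Vim and Gfap (left) and of Lmna, Lmnb1 and Lmnb2 (right) in the 4 cultures, ordered from quiescent over 24 h and 48 h to activated; stacked bars start at 0 and add up to 100. The Nes share peaks at 32.2% at 48 h, and Lmna takes 16.2% of lamin counts at 48 h, against 58.5% in quiescent cells.

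To compare shares across depths, every cell was thinned to 12488 identifiers, the 10th percentile of totals. This left 156, 122, 140 and 158 cells in the quiescent, 24 h, 48 h and activated cultures and left out 18, 29, 11 and 6. Nes was seen in 46.2% of quiescent cells (38.1 to 54.3), 62.3% at 24 h (53.1 to 70.9), 94.3% at 48 h (89.0 to 97.5) and, for activated cells, 98.7% (95.5 to 99.8). Vim was seen in 98.7%, 97.5%, 100% and 100% of cells in this order. The Vim range was in its amount, with a mean of 7.42, 7.74, 11.0 and 38.6 counts per thinned cell. Gfap was seen in 46.8% of quiescent cells (38.8 to 54.9), 11.5% at 24 h (6.42 to 18.5), 2.86% at 48 h (0.784 to 7.15) and, for activated cells, 1.27% (0.154 to 4.50). Without thinning the Gfap shares were 62.6%, 14.6%, 5.30% and 4.27%.

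Lmna was seen in 22.4% of thinned quiescent cells (16.1 to 29.8), 5.74% at 24 h (2.34 to 11.5), 19.3% at 48 h (13.1 to 26.8) and, for activated cells, 40.5% (32.8 to 48.6). Lmnb1 was seen in 6.41% (3.12 to 11.5), 3.28% (0.900 to 8.18), 42.9% (34.5 to 51.5) and 47.5% (39.5 to 55.5) of cells in the same order, and Lmnb2 in 13.5% (8.53 to 19.8), 6.56% (2.87 to 12.5), 23.6% (16.8 to 31.5) and 29.1% (22.2 to 36.9). No lamin transcript was seen in 64.1% of quiescent, 86.1% of 24 h, 33.6% of 48 h and 19.0% of activated cells. These are limits of detection at this depth and not shares of cells without lamins. No cell type that lacks these genes was identified in the table to give a background share. Wells outside the table with under 1000 transcripts numbered 50 on the plate of 48 h and activated cells, with 22 Vim and 5 Nes counts, and 35 on the other plate, with 6 Vim and 0 Nes counts. Neither set held a Gfap count.

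**Figure D3:**
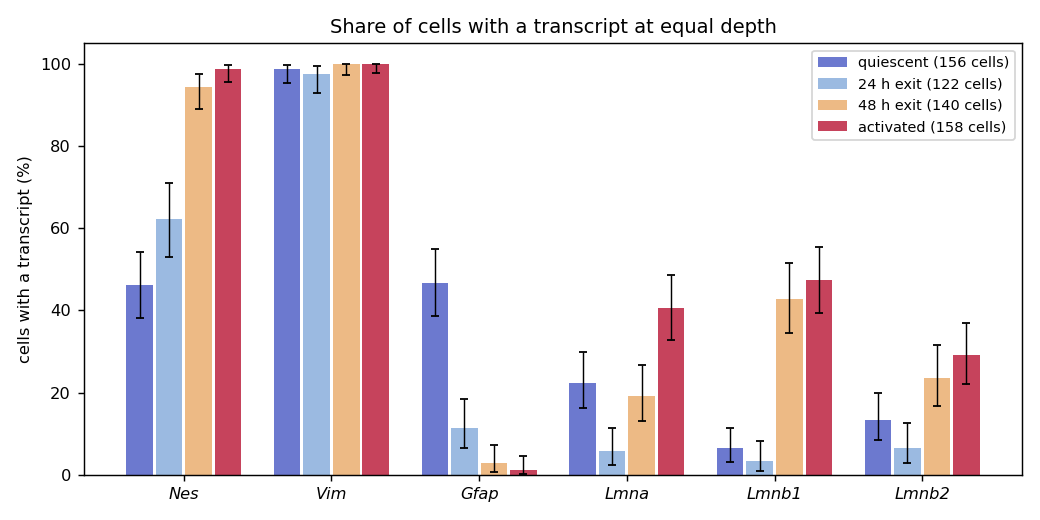
Percent of cells with at least 1 transcript of each gene after thinning every cell to 12488 identifiers, in the 4 cultures, ordered from quiescent over 24 h and 48 h to activated, with 95% Clopper-Pearson intervals. Vim is near 100% in every culture, Nes is at 98.7% in activated cells, against 46.2% in quiescent cells, Gfap is at 1.27% in activated cells, against 46.8% in quiescent cells, and the lamins are seen in under 50% of cells of every culture.

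At this thinned depth, pairs of these genes were seen together in numbers within 3.43 cells of those from the product of their shares. Vim was seen in every thinned cell at 48 h and in activated cells, so its pairs there equal the product by construction. Nes, at 94.3% and 98.7% there, leaves its pairs little room to differ. For rare genes a gap in cells is small in any case: Lmna and Lmnb2 at 24 h were seen together in 2 of 122 cells, beside 0.459. In quiescent cells Nes and Gfap, the pair often used to name stem cells, were seen together in 33 of 156 cells, beside 33.7 from the product. Of the quiescent cells, 39 had Nes without Gfap, 40 Gfap without Nes and 44 neither. In activated cells Lmna and Lmnb1 were seen together in 29 of 158 cells, beside 30.4, and Lmnb1 and Lmnb2 in 19, beside 21.8. At 48 h Nes and Lmnb1 were seen together in 60 of 140 cells, beside 56.6, and the 8 cells without Nes held no Lmnb1. Over the 15 pairs the widest gap between seen and product in thinned cells was 1.65 cells in quiescent cells, 1.54 at 24 h, 3.43 at 48 h and 2.84 in activated cells. Unthinned, where totals differed between cells, Lmnb1 and Lmnb2 at 48 h were seen together in 50 of 151 cells, beside 39.6 from the product. The part of depth was not tested. Pearson's r of log2(count + 1) over thinned cells lay between -0.15 and 0.27 for all pairs and cultures, with cells of 1 culture sharing a plate and a library. At such counts a weak correlation is no finding. The median number of members seen in a thinned cell was 2 of 6 in quiescent and 24 h cells and 3 of 6 at 48 h and in activated cells, and all 6 were seen in none.

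The authors' phase calls placed 146 of 174 quiescent, 138 of 151 cells at 24 h, 22 of 151 at 48 h and 1 of 164 activated cells in G0. The phases were made from the same counts by the authors, and whether members took part in the calls is not given in the sources used here, so phase values are descriptions. Lmnb1 separated phases most. At 48 h it stood at 3.73 CPM in G0 (0.452 to 13.5), 11.1 in G1 (4.08 to 24.2), 53.1 in S (41.6 to 66.8) and 62.7 in G2/M (51.3 to 75.9). In activated cells it stood at 17.5 CPM in G1 (10.5 to 27.3), 49.3 in S (40.6 to 59.1) and 65.5 in G2/M (56.8 to 75.1). The 48 h over activated ratio of Lmnb1 was 1.08 (0.793 to 1.46) in S and 0.957 (0.749 to 1.22) in G2/M. In G1 it was 0.635 (0.208 to 1.66), from 6 and 19 counts, too few to tell likeness from a difference. G2/M over G1, the log2 difference of Lmnb1 was 1.78 at 48 h and 1.46 in the activated culture, where 5.34% of 8182 and 3.65% of 9485 genes were called higher. S over G1 it was 1.58 at 48 h and 1.11 in activated cells, where 4.96% and 3.93% of genes were called higher. Lmnb2 at 48 h stood at 14.9, 14.8, 30.6 and 31.0 CPM in G0, G1, S and G2/M, and in activated cells at 10.1, 32.5 and 28.2 CPM in G1, S and G2/M.

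Vim did not share this pattern. It stood at 895, 808, 829 and 851 CPM in G0, G1, S and G2/M at 48 h and at 3437, 2956 and 2943 CPM in G1, S and G2/M of activated cells. The 48 h over activated ratio of Vim was 0.235 (0.212 to 0.259) in G1, 0.280 (0.263 to 0.299) in S and 0.289 (0.273 to 0.306) in G2/M. For Lmna this ratio was 0.161 (0.0422 to 0.439) in G1, 0.382 (0.223 to 0.626) in S and 0.411 (0.261 to 0.628) in G2/M, and for Nes it was 0.582, 0.652 and 0.691. The part of phase in the differences between cultures was not tested. In G2/M cells at 48 h over activated, Vim was the only member called lower, at -1.78, where 2.04% of 9662 genes were. Vim was also called in S, at -1.82, where 2.32% of genes were called lower. In G1 both Vim, at -2.07, and Lmna, at -1.69 from 4 counts at 48 h, were called, where 4.64% of genes were called lower.

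Within G0 cells, Nes stood at 44.4 CPM in quiescent cells (38.2 to 51.4), 133 at 24 h (119 to 147) and 222 at 48 h (184 to 266). Among these cells the 24 h over quiescent ratio of Nes was 2.99 (2.49 to 3.59), a log2 difference of 1.39, where 1.19% of genes were called higher. The 48 h cells were on the other plate, and the part of phase was not tested. Gfap in G0 cells stood at 78.8, 18.5 and 7.47 CPM in the same order, the last from 4 counts, and at 24 h over quiescent differed by -1.64 on the log2 scale, where 2.4% of genes were called lower. At 48 h, G1 cells had 2.23 (1.79 to 2.80) times the Nes level of G0 cells, a log2 difference of 1.12, where 2.74% of 5839 genes were called higher. The 12 quiescent cells called G1 had Vim at 1233 CPM (1101 to 1376) and Nes at 143 CPM (100 to 197), against 514 and 44.4 CPM in the 146 quiescent G0 cells. Both genes were past 2-fold higher in G1 over G0 there, where 1.85% of genes were, but 1 of the 12 cells carried this, with 107 of their 320 Vim counts and 15 of their 37 Nes counts. Without that cell, a choice made after seeing the data, Vim was at 883 and Nes at 91.4 CPM in the G1 cells, log2 differences of 0.77 and 0.90, and neither was called. Their Gfap level was 30.8 CPM (13.3 to 60.7), against 78.8 CPM (70.4 to 87.9) in G0 cells, and Gfap was called lower, where 2.46% of genes were. For Lmnb2, with 0 counts in those 12 cells, the ratio interval of 0 to 1.48 includes no difference.

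**Figure D4:**
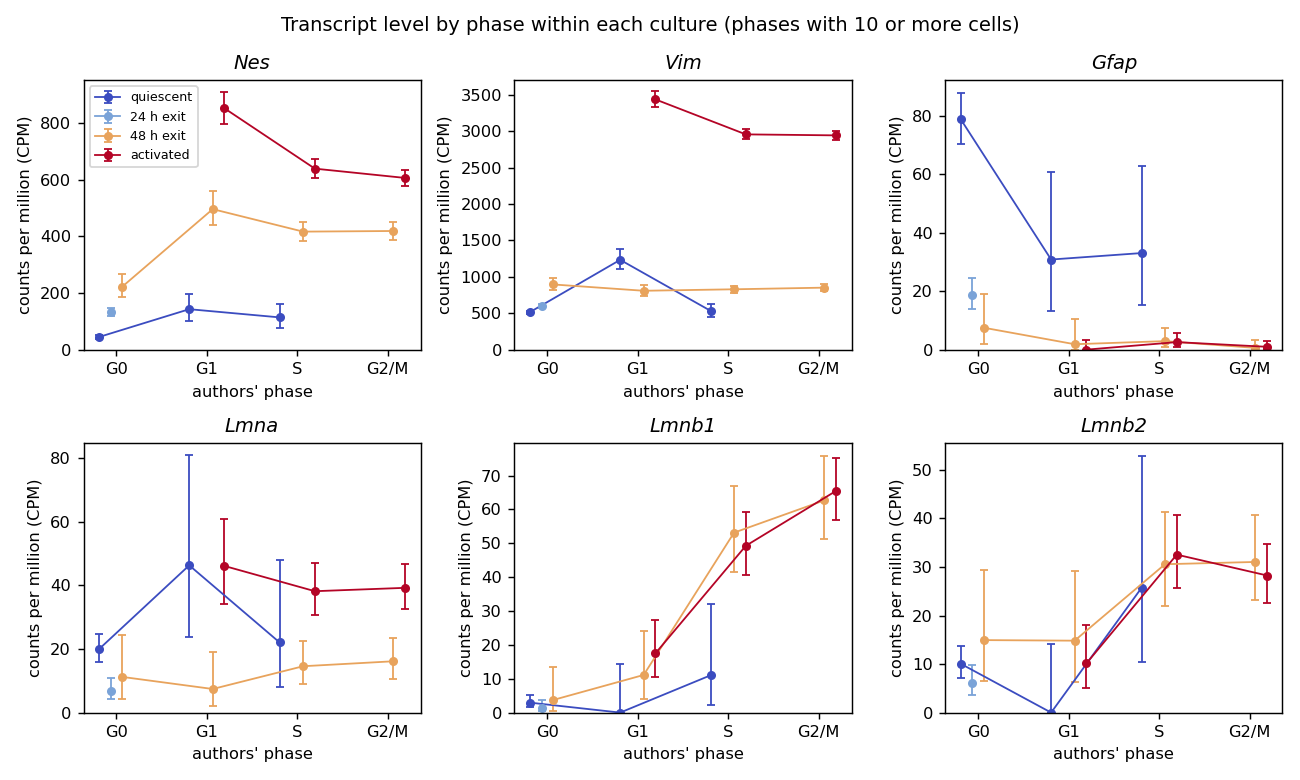
Level of each gene in CPM by the authors' phase within each culture, for phases with 10 or more cells, with 95% Poisson intervals; axes are linear and differ between panels, and lines join phases of 1 culture. Lmnb1 is at 62.7 CPM in G2/M at 48 h and 65.5 CPM in G2/M of activated cells, with G0 and G1 below 20 CPM, while Vim at 48 h stays between 808 and 895 CPM in every phase.

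The authors' clusters nearly repeated the states, with 166 of 174 quiescent cells in cluster 1, 145 of 151 cells at 24 h in cluster 0 and 163 of 164 activated cells in cluster 2. The 48 h culture was divided, with 109 cells in cluster 3 and 41 in cluster 0, which it shared with the 24 h cells. Between these, cluster 3 had Lmnb1 at 59.6 CPM (51.2 to 68.9), against 3.75 CPM (1.02 to 9.60) in cluster 0, and Lmnb2 at 31.6 CPM (25.6 to 38.6), against 13.1 CPM (7.17 to 22.0). Lmnb1 alone of the members was called, at 2.34 on the log2 scale, where 4.86% of genes were called higher. Nes was at 423 CPM in cluster 3, against 339 CPM in cluster 0, and Vim at 833 CPM, against 872 CPM. Clusters were made from the same counts, so these are descriptions. The 41 cells at 48 h in cluster 0 had Nes at 2.33 (2.03 to 2.70) times and Vim at 1.49 (1.38 to 1.62) times the level of the 145 cells at 24 h in the same cluster, while Lmnb1 had 4 counts at 48 h and 6 at 24 h. Nes was called there, at 1.17, where 1.05% of genes were called higher.

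The gates were the one factor repeated over cultures. In edgeR's quasi-likelihood test with culture as a block (n = 4 cultures, 3 residual degrees of freedom, Benjamini-Hochberg adjustment over 7792 genes), 223 genes were called between the high and the low gate at an adjusted p under 0.05, which is 2.86% of those tested, with 2.12% higher and 0.744% lower in the high gate. All 6 members passed the filter on low counts and none was called, with adjusted p between 0.104 and 0.722. At an unadjusted p under 0.05 edgeR gave 1317 genes, with Gfap alone among the members. DESeq2 called none of the 6 either, but gave an adjusted p for Nes and Vim only. Gfap had the largest fitted difference of the 6, at 1.12 on the log2 scale (SE 0.36, adjusted p = 0.104), and was higher in the high gate in 4 of 4 cultures. At 48 h and in activated cells this rests on 6 and 4 counts in the high gate, with 0 in each low gate. Over cultures Gfap averaged 23.0 ± 29.3 CPM in the high gate and 13.0 ± 17.9 CPM in the low gate (SD, n = 4 each). Without the filter on low counts and in a linear trend over the 4 gates, edgeR's adjusted p for Gfap was 0.0367 and 0.0393. In quiescent cells, where most Gfap counts were, the high gate at 65.0 CPM lay below the mid-high gate at 106 CPM.

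Lmnb1 was lower in the high gate in 4 of 4 cultures, at 22.4 ± 23.1 CPM, against 34.4 ± 30.3 CPM in the low gate (log2 difference -0.55, SE 0.26, adjusted p = 0.297 in edgeR). At 24 h both gates held 4 Lmnb1 counts and differed only in their totals, and in quiescent cells the high gate held 1 count and the low gate 7. Nes was at 297 ± 279 CPM in the high gate and 373 ± 262 CPM in the low gate (-0.31, SE 0.15, adjusted p = 0.317 in edgeR) and lower in 3 of 4 cultures. For Lmna the difference was 0.45 (SE 0.25, adjusted p = 0.397), for Lmnb2 -0.33 (SE 0.29, adjusted p = 0.626) and for Vim 0.10 (SE 0.12, adjusted p = 0.722) in edgeR. The sign of Vim turned with totals in place of TMM scaling, at -0.05. Cells of the high gate had 1.87 times the median total of those of the low gate, and the part of depth was not tested. Over cells within cultures, Spearman's rho between autofluorescence and a member lay between -0.27 and 0.19 in the 24 pairs of culture and gene.

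**Figure D5:**
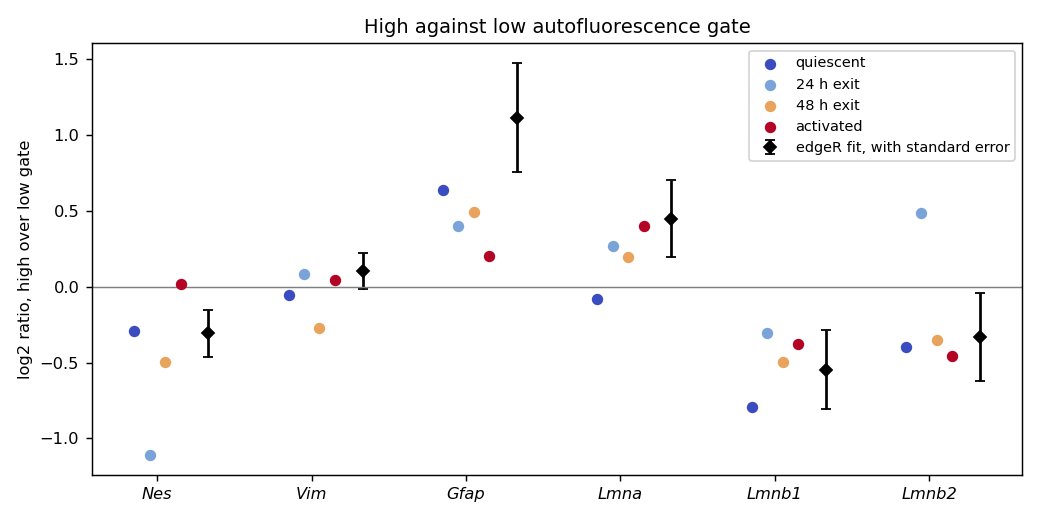
Log2 ratio of the high over the low autofluorescence gate for each gene. Coloured points are the 4 cultures, computed from CPM with 10 added; black diamonds are the edgeR fit over the 4 cultures with its standard error, on a scale with a smaller added count, so low genes lie further from 0. All 4 points of Gfap lie above 0 and all 4 of Lmnb1 below it, and none of the 6 passed the test. The low gate held 0 Gfap counts at 48 h and in activated cells, and at 24 h both gates held 4 Lmnb1 counts.

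Genes that act on these filaments were read from 5 lists. Of 22 inner nuclear membrane and LINC complex genes, which hold the lamina to the membrane and to the cytoskeleton, 20 had 20 counts in activated and quiescent cells. Of these, 7 were called higher in activated over quiescent and none lower, with a list median of 0.58, beside 9.12% of all genes higher and a median of 0.07. Lbr, the lamin B receptor, stood at 6.02, 8.21, 53.1 and 58.7 CPM in quiescent, 24 h, 48 h and activated cells, close to the course of Lmnb1. Tmpo, which encodes the lamin-binding LAP2 proteins, stood at 76.1, 51.6, 294 and 298 CPM. At 48 h over 24 h, 5 of 20 were called higher, beside 4.49% of all genes, and at 24 h over quiescent 0 of 19, beside 1.23%. Syne1, the gene of nesprin-1, was the only one of 20 called lower at 48 h over activated, beside 1.63% of all genes. It stood at 17.0 CPM at 48 h, against 66.5 CPM in activated cells.

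Of the linkers and chaperones of cytoplasmic filaments, 8 of 13 had 20 counts in activated and quiescent cells. Of these, 3 were called lower (Plec, Hspb8 and Bag3) there and also at 24 h and 48 h over quiescent, and 1, Pkp4, was called higher in activated over quiescent and in 48 h over 24 h. Of all genes, 6.5% were called lower in activated over quiescent, 2.27% in 24 h over quiescent and 4.75% in 48 h over quiescent. Higher calls made up 9.12% of all genes in activated over quiescent and 4.49% in 48 h over 24 h. At 48 h over 24 h, 1 of 7, Hspb8, was also called lower, beside 2.62% of all genes. Plec, whose product plectin ties filaments to each other and to junctions, stood at 123 CPM in quiescent cells, 27.6 at 24 h, 14.8 at 48 h and 36.3 in activated cells. Hspb8, a small heat shock protein that acts with BAG3, stood at 276, 60.1, 15.3 and 6.25 CPM in the same order. The CPM of Hspb8, like that of Gfap, was lower in each later culture of this order.

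Of the kinases known to phosphorylate filament or lamin proteins, 10 of 12 had 20 counts. Cdk1, Ccnb1 (the cyclin partner of CDK1), Aurka, Aurkb and Plk1 were called higher and Prkca lower, 5 and 1 of 10, in activated over quiescent, in 48 h over 24 h and in 48 h over quiescent, all 6 named after their values were seen. Of all genes, 9.12%, 4.49% and 4.47% were called higher in these 3 comparisons, and 6.5%, 2.62% and 4.75% lower. Ccnb1 stood at 19.4, 11.8, 164 and 247 CPM in quiescent, 24 h, 48 h and activated cells, and Plk1 at 15.0, 11.5, 122 and 186 CPM. Of the 5 genes of prelamin processing 0 were called in each of the 5 comparisons, a count too small to set apart from the share over all genes. Zmpste24, the protease that matures prelamin A, stood at 114, 134, 146 and 118 CPM. Of 18 other intermediate filament genes, 4 had 20 counts. Iffo2 was called higher in activated over quiescent, beside 9.12% of all genes, and lower in 48 h over activated, beside 1.63%. Its level was 21.2, 14.4, 15.8 and 52.6 CPM. In the gate test edgeR called 2 of the 43 genes of these lists that were tested, beside 2.86% of all genes, both higher in the high gate: Cryab, the gene of alpha-B-crystallin, at a log2 difference of 1.27 (SE 0.14, adjusted p = 6.3e-05) and Aurkb at 1.35 (SE 0.26, adjusted p = 0.0086).

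Over the 16 sums of culture and gate, the genes whose log2(CPM + 10) was most like each member were ranked by Pearson's r, among those with at least 500 counts. For Nes they were Lasp1 (0.98), Arl4c, Rassf3 and Cdr2l (each 0.97), from 5019 genes. For Vim they were Nfib, Fndc3c1, S100a10 and Nras (each 0.97). S100a10 stood at 38.6, 30.9, 52.6 and 217 CPM in quiescent, 24 h, 48 h and activated cells, with most of its range between 48 h and activated cells, as for Vim. For Gfap they were Srgap1, Ckb (each 0.96), Slc6a8 (0.96) and Skp1a (0.95), and for Lmna Plxnb2, Tuba1a (each 0.95), F2r and Tnc (each 0.94). Tnc, the gene of tenascin C, stood at 95.4, 11.8, 25.5 and 256 CPM, with its lowest value at 24 h like Lmna. For Lmnb1 they were Dtymk, Uhrf1, Tubb5 and Dut (each 0.98), of which Dtymk and Dut make thymidine nucleotides for DNA synthesis. For Lmnb2 they were Lsm3, Mcm2, Mcm6 and Xpo1 (0.94 to 0.95), of which Mcm2 and Mcm6 are subunits of the replicative helicase. Among the members themselves, r was 0.89 for Lmnb1 with Lmnb2, 0.90 for Nes with Lmnb1, -0.95 for Nes with Gfap and 0.35 for Nes with Lmna. The 16 sums come from 4 cultures, so these values are descriptions.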

How the data were processed

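The measurements are 3′ transcript counts of single neural stem cells on 2 plates. The submitters' processing notes name Seurat 4.1.1, R 4.2.0 and BWA 0.7.15, with builds mm10 and hg19; cell filters and the making of phases and clusters are not given in the sources used here. The deposited values are expected counts, molecule counts corrected by the authors for identifiers shared among 4096, and inverting this gave whole identifiers to within 4.9e-05. Per the file headers, the per-cell table adds condition, gate, phase, cluster and sorter intensity in arbitrary units. The 128 of 768 wells outside that table carry no condition or gate and entered no comparison.

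Counts were summed per culture, gate, phase or cluster and divided by the sum's total (CPM), with exact Poisson intervals and exact conditional binomial intervals on ratios. Shares were taken in thinned cells with Clopper-Pearson intervals. Between states no test was made. For gates, sums were rounded and tested with edgeR 4.0.16 (R 4.3.3, TMM, filterByExpr, culture block); DESeq2 1.42.0 was an alternative. Cultures carry no replicate number that pairs them beyond this block. Scripts were tested on simulated data. Named partner genes were up to 2 per list with the largest log2 ratio among those with 100 counts, and called partners in the gate test. Other partners named by count were picked after their values were seen. The members and lists were chosen with earlier results of these data known. Other tools were scipy 1.17.1, pandas 2.3.3, numpy 2.4.6, matplotlib 3.10.9 and Python 3.11.15.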

Additional observations from a re-analysis of the deposited data

Results flagged for a closer look

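The high over low gate log2 ratio of Lmnb2 was 0.49 in the 24 h exit culture, apart from the other 3 cultures, which lay between -0.45 and -0.35. The gap was 0.891 of the whole range, above Dixon's 95% critical value for 4 values, which chance passes in about 1 in 20 groups. The 24 h value rests on 6 counts in the high gate and 1 in the low gate.

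The 128 wells outside the per-cell table also held transcripts of these genes, above the 3 counts that a count of 0 allows. They held 259 counts of Vim in 55 wells, 60 of Nes in 24 wells, 23 of Gfap in 6 wells, 8 of Lmna in 5 wells and 7 of Lmnb2 in 5 wells. Lmnb1 had 1 count. Of the Gfap counts, 21 were on the plate of the quiescent and 24 h cultures and 2 on the other plate.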

How the results depend on the processing

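Each of the 30 log2 ratios between states was recomputed under 15 alternatives. Among these, no count minimum and a minimum of 100 counts only decide which ratios are listed and can change no ratio. With their unchanged values counted in, the 15 called ratios kept their direction in all 222 values that could be computed, and 214 stayed past 2-fold. The exceptions were Nes at 24 h over quiescent (lowest 0.75) and 48 h over 24 h (0.89), Gfap (-0.78) and Lmnb2 (0.68) at 48 h over 24 h, and Lmna at 48 h over activated (-0.90). Of the 15 ratios not called, 7 were called in 17 values: Lmna at 24 h over quiescent under 7 alternatives (down to -1.63), Lmnb2 under 3 each in activated over quiescent (1.28 to 1.36) and 48 h over quiescent (1.05 to 1.36), Lmna in 48 h over 24 h without a pseudocount (1.00), and with spike-ins Lmna in activated over quiescent (1.16), Vim in 48 h over 24 h (1.14) and Nes in 48 h over activated (-1.13). With spike-ins, 22.6% of all genes were called higher in activated over quiescent and 11.8% in 48 h over 24 h. Lower calls then made up 6.82% in 48 h over activated and 4.22% in 24 h over quiescent. For the other alternatives the share over all genes is not given, so the added calls are no result about the members. The count of members called changed by over 1.5 times for 48 h over activated to 1 in thinned cells and in the low gate, and for 48 h over 24 h to 2 in the low and the low-mid gate. Unthinned, Nes and Vim were seen in every activated cell, so pairs with either gene equalled the product there. Lmnb1 and Lmnb2 at 48 h were seen together in 50 unthinned cells, beside 39.6 from the product, and in 14 thinned cells, beside 14.1. In activated cells this pair was seen in 76 unthinned cells, beside 76.1. Pearson's r of log2(count + 1) of Nes with Vim in activated cells was 0.74 unthinned and 0.18 thinned. In single gates (low, low-mid, mid-high, high), the Gfap share of filament counts moved to 5.39%, 16.8% and 9.31% in low, mid-high and high for quiescent cells, to 1.64%, 0.718% and 4.03% in low, low-mid and mid-high at 24 h, to 0% and 0.0883% in low and low-mid at 48 h, and to 0% in low for activated cells. The Lmna share of lamin counts moved to 50% (low) and 70.8% (high) in quiescent cells, 75% (mid-high) at 24 h, 21.2% (high) at 48 h, and 25%, 29.9% and 40.3% (low, low-mid, high) in activated cells. In the gate test, genes called numbered 111 in DESeq2, which gave no adjusted p for 5136 genes, 335 without TMM, 414 without the filter and 634 in the trend. With no replicate block 0 genes were called, and 114 had an unadjusted p under 0.05. Leaving out a culture gave 18 to 183, with 18 without the 48 h culture, and called no member that was tested. Gfap passed the filter on low counts in neither the fit without the quiescent nor that without the 24 h culture. Lmnb1 passed it in neither the fit without the 48 h nor that without the activated culture. Gfap passed the threshold without the filter and in the trend (adjusted p = 0.0367 and 0.0393 in edgeR). The Vim gate difference reversed to -0.051 on totals. The cause of these changes was not tested. Totals without Rn45s, an alternative added after seeing the data, changed no call. Depth limits the lamins most, with 53 lamin counts at 24 h, and Gfap at 48 h and in activated cells, with 10 and 9 counts.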
